A study of Homo sapiens with 4 samples.

Results

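The interferon-stimulated and RNA-sensing genes were a list of 46 genes, each matched by symbol to array probes through the probe's accession, with DDX58 listed under its current RefSeq symbol RIGI. Of the 46 genes, 45 had a probe matched in this way and 42 gave a signal that could be tested, out of 23484 genes tested on these arrays. The list held 8 sensors of double-stranded RNA and 38 other genes, namely sensor cofactors, signalling factors and antiviral effectors. The list median lay near 0. At an adjusted p under 0.05 (limma), 6 genes, 14.3% of those tested, were lower in the cells with less AEG-1. Of all genes tested, 2.26% were lower and 1.26% higher. The 6 genes were among the other genes, and a count of 0 in 8 sensors lies near the share of all genes.

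The arrays compared stable clones of SAS, a human tongue squamous cell carcinoma line, that differed in AEG-1 (also called LYRIC, gene MTDH), an oncogene raised in head and neck squamous cell carcinoma (HNSCC). SB cells carried the lentiviral pLKO.1 vector with LYRIC shRNA-B. SCt cells, the control, carried pLKO.1 without that shRNA, described as the vector by the labels and as a scrambled shRNA by the study's text, which cannot be told apart here. Both lines had gone through 14 days of selection in puromycin (2 μg/ml) and stayed in the drug, so both carried a lentiviral insertion. The labels call the lines stable clones without giving how many clones each held, so a difference between clones cannot be told apart from the effect of the shRNA. On each of 4 two-colour arrays, cDNA from SB cells was labelled with the red Alexa dye and cDNA from SCt cells with the green. The labels called the 4 arrays biological replicates without naming separate cultures, so the p-values measured the spread between these 4 arrays. No array had the dyes exchanged, so dye and line cannot be told apart for any probe.

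Cells recognise viral double-stranded RNA through helicases in the cytosol (RIG-I, MDA5), a receptor in endosomes (TLR3), the kinase PKR and the oligoadenylate synthetases. The helicases and TLR3 lead to secretion of type I and type III interferons, which bind receptors on the same or neighbouring cells and activate a complex that holds STAT2 and IRF9. This complex binds the interferon-stimulated response element (ISRE) in the promoters of interferon-stimulated genes, many of which encode proteins that block viral entry, translation or replication. The sensors are themselves interferon-stimulated, and carcinoma lines can hold such genes at a raised level without infection.

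AEG-1 was the check of the labels. Its log2 ratio of SB over SCt was -3.18, -3.01, -3.12 and -3.41 on arrays 1 to 4, a mean of -3.18 ± 0.17 (SD, n = 4) or 9.07-fold lower in SB cells (limma, adjusted p = 5.19e-10). Its normalized intensity was 1020 to 1557 in SB cells and 9254 to 13820 in SCt cells, without overlap. Median spot intensity was 655 to 875 in the red channel and 362 to 588.5 in the green channel, 84.7% to 90.3% of probes were well above background, and no spot was saturated. All 10 squamous epithelial markers were above background in both lines. Of the markers of other cell types, 6 of 7 immune, 4 of 4 endothelial and 3 of 6 fibroblast genes with a probe were also above background. Mean log2 signals ran from 6.545 to 14.18 (PTPRC, brightest probe) in the immune genes and from 10.02 to 15.97 in the squamous genes. In the 4 marker lists 0 genes passed the test, near the share of all genes (2.26% lower, 1.26% higher). The part of other cell types in the results was not tested.

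Of the 42 genes tested, 6 were lower in SB cells at an adjusted p under 0.05 and 0 were higher. They were IFIT1, IFIT2, PLSCR1, SAMD9, IRF9 and IFI44. In RNA of a whole culture, fewer cells that express a gene and less RNA in each cell cannot be told apart. The 6 genes made up 14.3% of the 42, where 2.26% of all genes tested were lower and 1.26% were higher at the same threshold. At an unadjusted p under 0.05, 11 genes (26.2%) were lower and 1 gene (2.38%) was higher, against 8.98% and 9.16% of all genes. The median log2 ratio of the 42 genes was -0.002, with 21 genes below and 21 above 0, and that of all genes was 0.013. The median size of the log2 ratio, without its sign, was 0.078 in the 42 genes and 0.065 in all genes. In all, 13 of the 42 genes (31%) were lower on each of the 4 arrays and 4 (9.52%) were higher on each, against 12.3% and 14.1% of all genes with a value on every array. The counts moved with the dye correction. With each array centred on its median in place of the correction following intensity (loess), 11 of the 42 genes were lower and 7 higher. The 6 genes were among the 11. At that setting 11.2% of all genes were lower and 20.8% higher, and the median of all genes was 0.071. Calls of single genes with median centring, given below, stand against these shares.

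**Figure D1:**
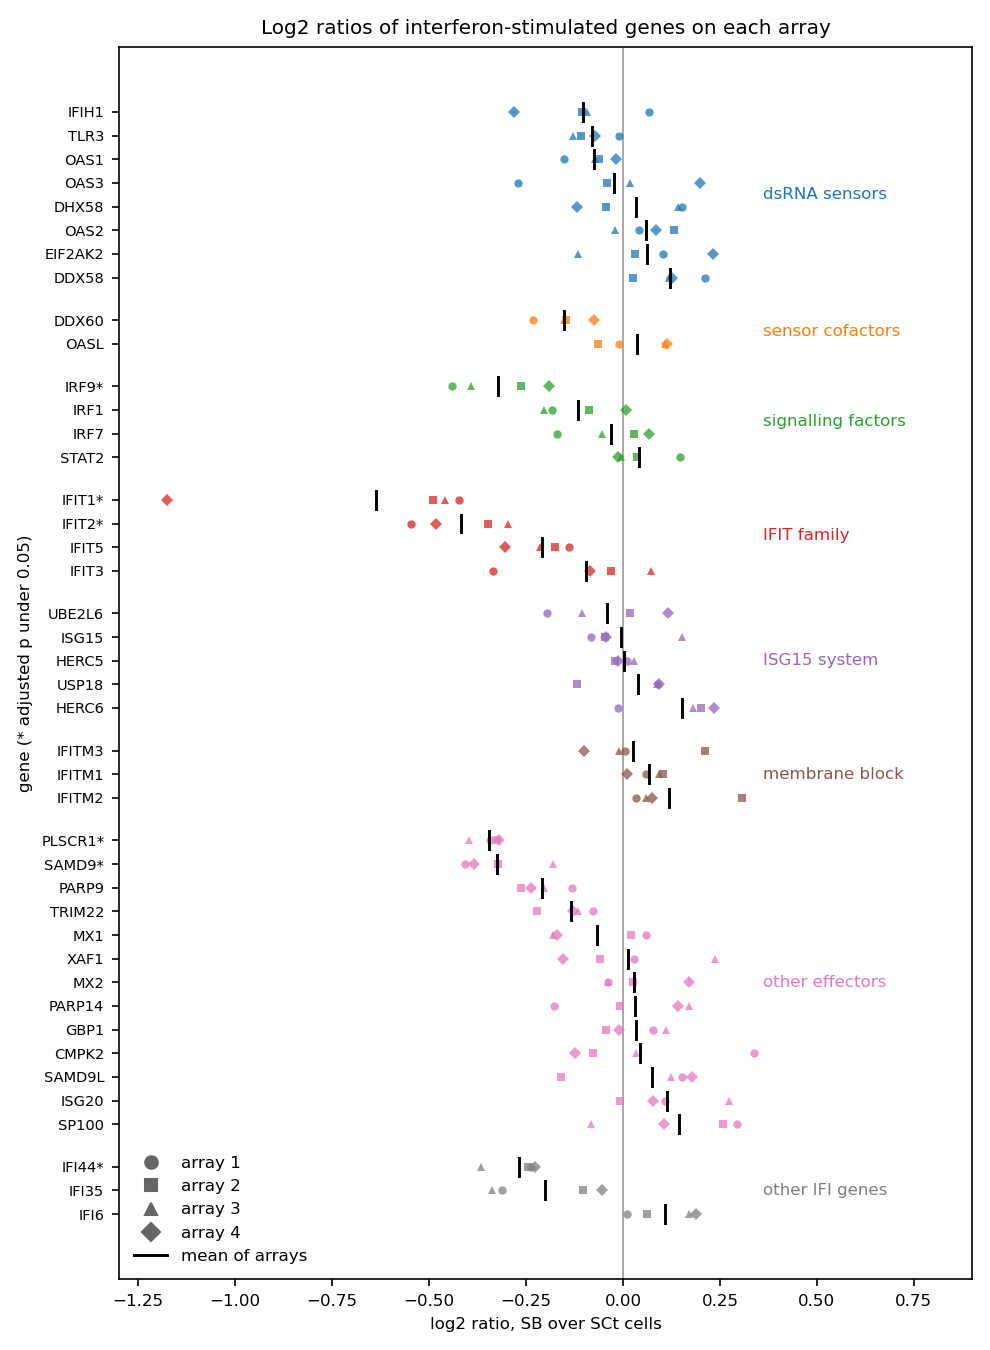
Log2 ratio of SB over SCt cells on the horizontal axis for the 42 genes tested, grouped by role, with a point for each of the 4 arrays and a bar at their mean. The 6 genes with an asterisk passed an adjusted p of 0.05 and lie below 0 on every array, and the means of the 8 double-stranded RNA sensors lie between -0.10 and 0.12.

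**Figure D2:**
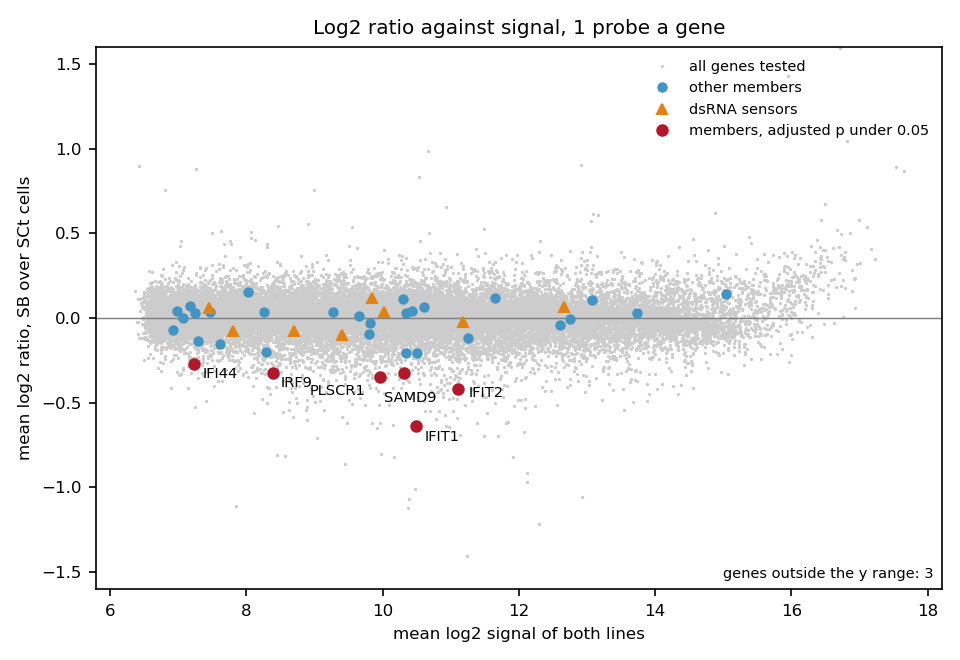
Mean log2 ratio of SB over SCt cells (vertical) against the mean log2 signal of both lines (horizontal), 1 probe for each gene, with all genes tested in grey. The 6 genes lower in SB cells range from weak signals (IFI44, 7.23) to stronger ones (IFIT2, 11.10), and 3 genes, AEG-1 among them, lie outside the vertical range of 1.6 in either direction.

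The promoters of these genes are shown for the motifs that their known regulators bind. RefSeq promoter windows of GRCh38.p14, from 250 bases before to 50 bases after the transcription start, were found for 37 of the 46 genes. The search was for the ISRE core (GAAA, any pair of bases, GAAA) on both strands, and for the gamma-activated site (GAS), the palindrome TTC, any 3 bases, GAA. The ISRE core was in the promoters of 25 of the 37 genes (67.6%), against 4.38% of all 27305 genes with a window and 3.57% of all 35116 windows. The GAS letters were in 12 of the 37 (32.4%), against 9.38% of all genes and 7.66% of all windows. Matches of the pair can overlap, and a match describes the letters and not a bound site. Of the 6 genes lower in SB cells, IFIT2 had no window, IFIT1, SAMD9, PLSCR1 and IFI44 held the ISRE core, and IRF9 held only the GAS letters. Each stretch below is 80 bases of the gene's own strand, 5′ to 3′, with the ISRE core, or for IRF9 the GAS letters, in capitals.
IFIT1 (chr10:89392478-89392557, strand +): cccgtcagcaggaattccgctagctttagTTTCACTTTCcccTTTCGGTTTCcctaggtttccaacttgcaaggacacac
SAMD9 (chr7:93118071-93118150, strand -): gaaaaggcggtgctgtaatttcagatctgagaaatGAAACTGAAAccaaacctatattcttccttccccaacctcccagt
PLSCR1 (chr3:146544642-146544721, strand -): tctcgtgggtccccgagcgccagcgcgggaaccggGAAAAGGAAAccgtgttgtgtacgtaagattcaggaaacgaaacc
IFI44 (chr1:78649709-78649788, strand +): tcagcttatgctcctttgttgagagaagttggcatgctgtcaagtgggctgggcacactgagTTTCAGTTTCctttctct
IRF9 (chr14:24161166-24161245, strand +): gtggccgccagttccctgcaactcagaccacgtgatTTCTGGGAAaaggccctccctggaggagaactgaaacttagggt
The cores began at position -116 from the start site in IFIT1, where a second core followed within the stretch, at -136 in SAMD9, at -79 in PLSCR1 and at -18 in IFI44, and the GAS letters of IRF9 began at -63. PLSCR1 and IFI44 each had 2 windows, of which the first is shown. For comparison, these are the same stretches of 3 sensors that did not pass the test, IFIH1, EIF2AK2 and OAS3.
IFIH1 (chr2:162318796-162318875, strand -): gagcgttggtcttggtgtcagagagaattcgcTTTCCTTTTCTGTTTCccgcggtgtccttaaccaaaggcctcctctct
EIF2AK2 (chr2:37156977-37157056, strand -): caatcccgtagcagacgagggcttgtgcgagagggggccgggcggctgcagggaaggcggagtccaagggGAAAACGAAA
OAS3 (chr12:112938296-112938375, strand +): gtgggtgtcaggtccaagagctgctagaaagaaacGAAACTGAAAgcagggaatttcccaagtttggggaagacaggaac
Among the sensors, 4 of the 6 with a window held the ISRE core, IFIH1, TLR3, EIF2AK2 and OAS3, while those of DDX58 and OAS1 did not. The share with the core was 17 of 28 (60.7%) in the tested genes that did not pass and 4 of 5 in those that were lower, so most genes of either kind held it.

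The 8 double-stranded RNA sensors were all measured on all 4 arrays in both lines, and 0 of 8 passed the test by limma at the brightest probe. With 2.26% of all genes lower and 1.26% higher, a count of 0 in 8 genes lies near the background. At the brightest probe, 0 of 8 reached an unadjusted p under 0.05 either. Their median log2 ratio was 0.005, with 4 genes below and 4 above 0. The range was -0.10 for IFIH1 to 0.12 for DDX58, and the median SD between arrays was 0.105, so most of the ratios lay within the spread of a gene between arrays.
DDX58, which encodes RIG-I, the helicase that binds RNA ends with a triphosphate, had ratios of 0.21, 0.03, 0.12 and 0.13 on arrays 1 to 4, a mean of 0.12 ± 0.07 (adjusted p = 0.279). SB cells had the higher value on each array, but its dimmer probe gave a mean of -0.08. IFIH1, which encodes MDA5, the helicase for long duplexes, had ratios of 0.07, -0.11, -0.09 and -0.28, a mean of -0.10 ± 0.14 (adjusted p = 0.426). DHX58, which encodes LGP2, a regulator of the other helicases without a signalling domain, had a mean of 0.03 ± 0.13. TLR3, the endosomal receptor, had ratios of -0.01, -0.11, -0.13 and -0.07, lower in SB cells on each array, but its mean of -0.08 ± 0.05 did not pass (adjusted p = 0.479). EIF2AK2, which encodes PKR, the kinase that halts translation, had a mean of 0.06 ± 0.15. Its dimmer probe was higher in SB cells on each array, at 0.17 ± 0.15 (unadjusted p = 0.024, adjusted p = 0.186).
The oligoadenylate synthetases make short oligoadenylate messengers once they bind duplex RNA. OAS1 had a mean of -0.08 ± 0.06, OAS2 of 0.06 ± 0.07 and OAS3 of -0.02 ± 0.19, with OAS3 between -0.27 and 0.20 over the arrays. OAS1 was lower in SB cells on each array (adjusted p = 0.503), while OAS2 and OAS3 lay on both sides of 0. The signal of OAS2 was weak (mean log2 7.45). With median centring in place of loess, 2 of the 8 sensors were called, both higher in SB cells, DDX58 at 0.20 (adjusted p = 0.0335) and EIF2AK2 at 0.22 (adjusted p = 0.0343). At that setting 20.8% of all genes were called higher and 11.2% lower, so 2 of 8 lies near the background.

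Both sensor cofactors were measured and neither passed, a count near the share of all genes. DDX60, a helicase that assists RIG-I-like receptors, had ratios of -0.23, -0.15, -0.15 and -0.08, lower in SB cells on each array, with a mean of -0.15 ± 0.06 (adjusted p = 0.165). In the ratios that the scanner software had computed, its mean was -0.32 and it passed (adjusted p = 0.0353), as it did with median centring (-0.27, adjusted p = 0.0157). Of all genes, 1.73% were called lower in the software's ratios and 11.2% with median centring. OASL, an oligoadenylate synthetase-like protein without the enzyme activity that supports RIG-I, had a mean of 0.04 ± 0.09.

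Of the 4 signalling factors, 1 was lower in SB cells, where 2.26% of all genes were. IRF9, the DNA-binding subunit of the complex that type I interferon activates, had normalized intensities of 233.2, 273.1, 469.5 and 266.1 in SB cells and of 316.6, 327.7, 615.8 and 303.9 in SCt cells on arrays 1 to 4. SB cells had the lower value on each array, although the 2 ranges overlapped because array 3 was bright for both lines. The log2 ratios were -0.44, -0.26, -0.39 and -0.19, a mean of -0.32 ± 0.12 (SD, n = 4; SE 0.06) or 1.25-fold lower (adjusted p = 0.0138). The adjusted p was 0.0636, 0.0540 and 0.120 without array 1, 2 or 3, and 0.000657 without array 4, and the mean stayed between -0.37 and -0.28. STAT2, the partner of IRF9 in that complex, had a mean of 0.04 ± 0.07 (adjusted p = 0.751). IRF1, a transcription factor induced by interferon gamma, had -0.12 ± 0.10 (adjusted p = 0.316) and IRF7, which amplifies interferon production, had -0.03 ± 0.11.

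The IFIT family, whose proteins bind viral RNA and restrict its translation, lay lowest of the groups. All 4 members had a mean below 0, their median was -0.31, and 2 of 4 passed the test. Of all 23484 genes, 10480 had a mean below 0 and 2.26% were called lower. The groups were chosen with earlier results of these data known. IFIT1, which recognises RNA without the methylated cap of the host, had normalized intensities of 737.4, 1957, 2034 and 597.5 in SB cells and of 988.8, 2751, 2793 and 1349 in SCt cells. SB cells had the lower value on each array, with the widest gap on array 4. Its log2 ratios were -0.42, -0.49, -0.46 and -1.17, a mean of -0.64 ± 0.36 (SE 0.11) or 1.55-fold lower (adjusted p = 0.00736).
Without array 4, the mean of IFIT1 was -0.46 (adjusted p = 1.8e-05), without array 3 it was -0.70 (adjusted p = 0.0880), and with a trended, robust variance the adjusted p was 0.0596. IFIT2, a binding partner of IFIT1 and IFIT3 that can promote cell death, had intensities of 1261, 4024, 3339 and 770.8 in SB cells and of 1844, 5126, 4099 and 1077 in SCt cells. Again SB cells were lower on each array while the level of both lines moved together from array to array. The log2 ratios of IFIT2 were -0.55, -0.35, -0.30 and -0.48, a mean of -0.42 ± 0.12 (SE 0.06) or 1.34-fold lower (adjusted p = 0.0034), and the call held when each array was left out in turn. Its dimmer probe was lower on each array as well, with a mean of -0.20 ± 0.14 that did not pass (adjusted p = 0.108).
IFIT5 had ratios of -0.14, -0.18, -0.21 and -0.30, lower on each array, with a mean of -0.21 ± 0.07 just outside the threshold (adjusted p = 0.0668). IFIT3, which stabilises IFIT1, had ratios of -0.33, -0.03, 0.07 and -0.09, a mean of -0.10 ± 0.17 (adjusted p = 0.506).

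**Figure D3:**
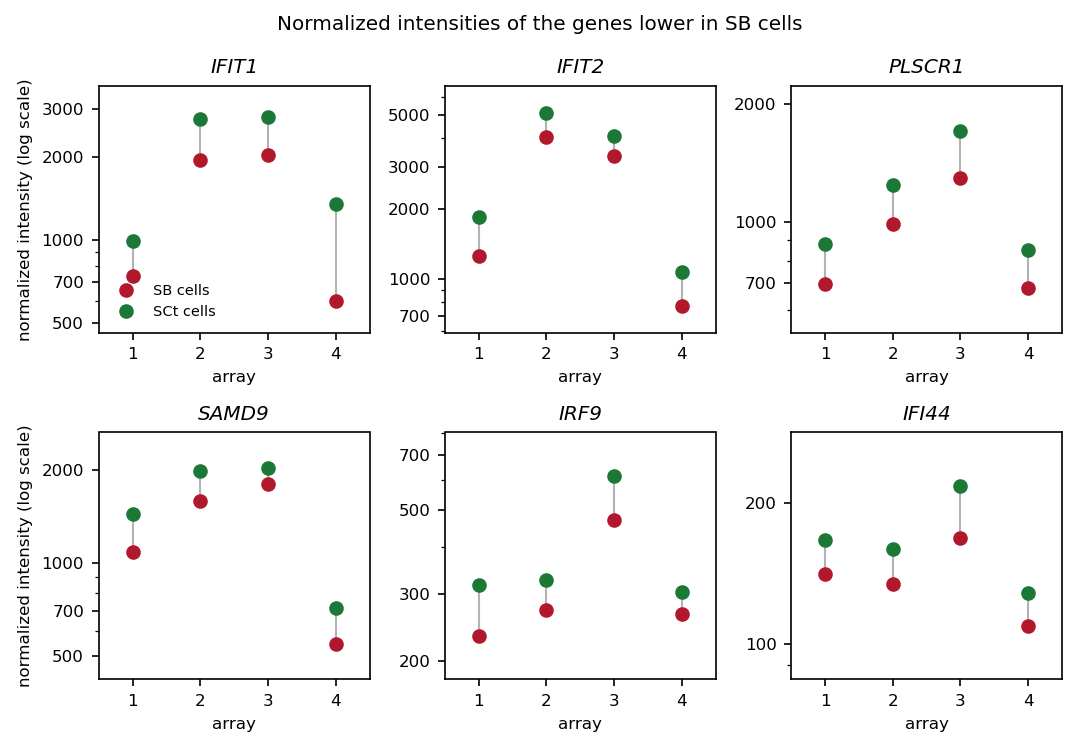
Normalized intensity on a log scale in SB cells (red) and SCt cells (green) on each of the 4 arrays for the 6 genes that passed the test, with a grey line joining the values of an array. SB cells lie below SCt cells on each array for each gene, and array 4 holds the lowest value of both lines for IFIT2, PLSCR1, SAMD9 and IFI44.

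In the ISG15 system, the ubiquitin-like protein ISG15 is attached to proteins by UBE2L6 and the ligase HERC5 and removed by USP18. With HERC6, of the same HERC family, the group had 0 of 5 genes past the threshold. With 2.26% of all genes lower and 1.26% higher, this count lies near the background. The ratios of the group ran from -0.04 (UBE2L6) to 0.15 (HERC6). ISG15 itself had ratios of -0.08, -0.05, 0.15 and -0.05, a mean of -0.01 ± 0.11 (adjusted p = 0.973), in a probe with an intensity of 2867 to 11150 in SB cells and of 2959 to 10050 in SCt cells. HERC5, the main ligase for ISG15, had a mean of 0.00 ± 0.02 under loess. With median centring it was called lower at -0.21 (adjusted p = 0.0329), where 11.2% of all genes were lower. HERC6 was the only one of the 42 genes higher in SB cells at an unadjusted p under 0.05 when each was read at its brightest probe, with ratios of -0.01, 0.20, 0.18 and 0.24 and a mean of 0.15 ± 0.11 (adjusted p = 0.202). USP18 had a mean of 0.04 ± 0.10.

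Of the membrane proteins that block entry or release of virus, 3 were tested, and none passed. With 2.26% of all genes lower and 1.26% higher, this lies near the background. IFITM1 had a mean of 0.07 ± 0.04, IFITM2 of 0.12 ± 0.13 and IFITM3 of 0.03 ± 0.13. The second probe of IFITM1 had the opposite sign, at -0.19 ± 0.09 (adjusted p = 0.103). With median centring, IFITM2 (0.24) and IFITM3 (0.25) passed as higher in SB cells, where 20.8% of all genes did. BST2, tetherin, was not tested, since its signal cleared the background on only 1 array for SB cells and 3 for SCt cells.

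Of the 13 other effectors tested, 2 were lower in SB cells, 0 were higher, and their median was 0.03. Among all genes, 2.26% were lower and 1.26% higher. PLSCR1, a phospholipid scramblase that raises the interferon response, had intensities of 696, 993.4, 1296 and 682.5 in SB cells and of 882.7, 1244, 1708 and 851.4 in SCt cells. The gap was nearly the same on each array, with log2 ratios of -0.34, -0.32, -0.40 and -0.32. Their mean was -0.35 ± 0.04 (SE 0.05) or 1.27-fold lower (adjusted p = 0.0052), and without array 3 it was -0.33 (adjusted p = 0.0560). SAMD9, a growth-restricting factor that inhibits poxviruses, had intensities of 1085, 1588, 1800 and 546.5 in SB cells and of 1440, 1986, 2038 and 713.2 in SCt cells.
SB cells were lower for SAMD9 on each array, with log2 ratios of -0.41, -0.32, -0.18 and -0.38. The mean was -0.32 ± 0.10 (SE 0.06) or 1.25-fold lower (adjusted p = 0.0122), with an adjusted p of 0.0555 without array 1 and 0.0634 without array 2. Its paralogue SAMD9L, a weak signal (mean log2 7.17), had ratios of 0.15, -0.16, 0.13 and 0.18. Just outside the threshold stood PARP9, a PARP family protein that partners a ubiquitin ligase, with a mean of -0.21 ± 0.06 and SB cells lower on each array (adjusted p = 0.0618). TRIM22, a ubiquitin ligase, had -0.14 ± 0.06, also lower on each array (adjusted p = 0.213). With median centring it was called at -0.29, where 11.2% of all genes were lower.
The other effectors tested had means between -0.07 and 0.14. MX1 and MX2, dynamin-like GTPases that trap viral components, had means of -0.07 ± 0.13 and 0.03 ± 0.10, and MX1 was called lower at -0.33 with median centring (adjusted p = 0.00786). GBP1, a guanylate-binding protein, had 0.03 ± 0.07, PARP14, a partner of PARP9, had 0.03 ± 0.16, XAF1, a promoter of apoptosis, had 0.01 ± 0.17, CMPK2, a mitochondrial nucleotide kinase, had 0.04 ± 0.21, and ISG20, an RNA exonuclease, had 0.11 ± 0.12 (called higher at 0.20 with median centring). SP100, a protein of nuclear bodies, had a mean of 0.14 ± 0.17 at its brightest probe and of 0.23 (unadjusted p = 0.0046, adjusted p = 0.0805) and -0.03 at the others. It was called higher (0.46) with median centring. At that setting 11.2% of all genes were called lower and 20.8% higher. The probe of RSAD2, viperin, cleared the background on 0 of 4 arrays in either line.

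Of the other genes named for their induction by interferon, 1 of 3 tested was lower, where 2.26% of all genes were. IFI44, a cytoplasmic protein of unsettled function, had intensities of 140.9, 134.2, 168.3 and 109.4 in SB cells and of 166.2, 159, 217 and 128.1 in SCt cells, a weak signal. SB cells were lower on each array, and the log2 ratios of -0.24, -0.24, -0.37 and -0.23 gave a mean of -0.27 ± 0.07 (SE 0.06) or 1.21-fold lower (adjusted p = 0.0216). The mean was -0.42 in the software's ratios and with normexp without an offset. The adjusted p was 0.0601, 0.0975 and 0.132 without array 1, 2 or 3. IFI35 had ratios of -0.31, -0.10, -0.34 and -0.05, a mean of -0.20 ± 0.15 (adjusted p = 0.116), and passed at -0.25 without array 4 (adjusted p = 0.0250) and at -0.23 with median centring. IFI6, a mitochondrial and endoplasmic reticulum protein that opposes apoptosis, was higher on each array, at 0.11 ± 0.09, and did not pass (adjusted p = 0.348). It was called at 0.28 with median centring (adjusted p = 0.00851). At that setting 20.8% of all genes were called higher and 11.2% lower. IFI44L was not tested, its signal having cleared the background on 2 arrays for SB cells and 1 for SCt cells. IFI27 had no probe matched through the accession table and was not analysed here.

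The pathway around these genes was read from 34 further genes for sensing and interferon signalling. Of the 31 tested, 1 was lower and 0 were higher, and their median was -0.003. With 2.26% of all genes lower and 1.26% higher, this count lies near the background. TBK1, the kinase that phosphorylates IRF3 below the sensors, had ratios of -0.12, -0.26, -0.29 and -0.31, a mean of -0.24 ± 0.08 or 1.19-fold lower (adjusted p = 0.0384). TBK1 passed under 9 of 16 alternatives. Among others, its call was lost without array 2 (-0.24, adjusted p = 0.162), without array 3 (-0.23, adjusted p = 0.187) and in the software's ratios (adjusted p = 0.104). PRKRA, an activator of PKR, stood just outside, at -0.26 ± 0.15 (adjusted p = 0.0511). IRF3 had a mean of -0.07 ± 0.04 at its brightest probe and of -0.27 ± 0.12 at the dimmer (adjusted p = 0.031). The adaptor MAVS had 0.12 ± 0.20, the receptor chain IFNAR1 had 0.15 ± 0.14, and the kinase JAK1 had 0.00 ± 0.14. IFNB1, interferon beta, passed the filter with a mean ratio of 0.07 ± 0.08 (adjusted p = 0.552). Its signal was weak, at a mean log2 of 6.61, close to the 6.47 of BST2, which was not tested. CGAS and TRIM25 had too few spots free of outlier marks, and IFNA1 had no matched probe.

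The level of these genes, apart from the ratio between the lines, varied more from array to array than that of most genes. The level was the mean log2 intensity of both lines after the arrays had been set to the same distribution, and its SD over the 4 arrays was compared with the 90th percentile of all genes, an SD of 0.311. Of the 42 genes, 17 (40.5%) were above it, where 10% of all genes are by construction. They were 2 of 8 sensors (TLR3 and DDX58) and 15 of 34 other genes (44.1%). The median SD of the level was 0.267 in the 42 genes and 0.152 in all genes.
IFIT2 varied most, with log2 levels of 10.72, 12.25, 11.54 and 9.98 on arrays 1 to 4, a 4.84-fold range. GBP1 had levels of 9.23, 9.73, 10.00 and 8.10 (3.72-fold), ISG15 of 13.24, 13.09, 13.15 and 11.61 (3.10-fold), and TLR3 of 8.66, 9.20, 9.04 and 7.90 (2.45-fold). In each of these 4 genes array 4 held the lowest level. IFIT3 (3.25-fold), IRF1 (3.16-fold), SAMD9 (2.70-fold), PARP14 (2.66-fold) and IFITM3 (2.45-fold) also had their lowest level on array 4.
Of the 17 genes, 15 (88.2%) were lowest on array 4 and 0 were highest on it. Of all 2349 genes above the percentile, 39% were lowest on array 4 and 25.2% highest. The exceptions were IFIT1, lowest on array 1, and DDX58, lowest on array 3 and highest on array 1. In the 15 genes the low level on array 4 was in both lines alike: IFIT2 ranged over 2.34 in SB cells and 2.21 in SCt cells on the log2 scale, and GBP1 over 1.96 and 1.83. In IFIT1 the lines differed: array 4 was the lowest in SB cells (9.37), while in SCt cells array 1 (10.09) lay below array 4 (10.55). The ratio of GBP1 meanwhile stayed between -0.05 and 0.11 and that of ISG15 between -0.08 and 0.15.
Other genes of the list varied little. HERC5, MX2, OAS2 and OASL, all weak signals, ranged over 1.08- to 1.16-fold, and IRF7 (1.21-fold) and IFI44 (1.25-fold) came next. The count was 14 of 42 without array 4, 15 with the arrays scaled to the same median and 22 without scaling. The ISRE core was in 10 of the 15 genes with a window among the 17 (66.7%) and in 11 of 18 among the rest (61.1%). Array 4 had a red median intensity of 655, against 683 to 875 on the other arrays, while its green median and its shares of probes above background lay within their range. What set the level on array 4 was not tested.

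**Figure D4:**
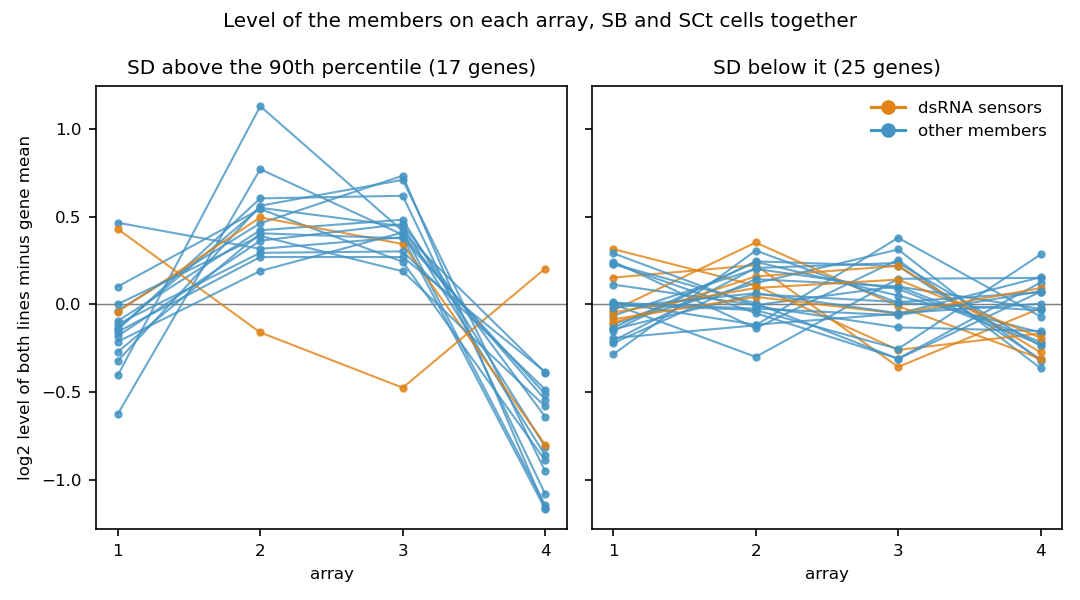
Log2 level of SB and SCt cells together on each array, minus the gene's mean over the 4 arrays, for the 17 genes whose SD over arrays was above the 90th percentile of all genes (left) and for the other 25 tested (right). Each line is a gene, with double-stranded RNA sensors in orange, and the arrays have no order. On the left, 15 of 17 genes have their lowest level on array 4, down to more than 1 below the gene's mean.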

How the data were processed

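RNA of SB cells and SCt cells was hybridised to 4 two-colour Agilent arrays on 1 slide. The authors deposited scanner output (Feature Extraction 10.5.1.1, per the submitters' processing notes) with linear median intensities of spot and background, and in the same deposited files the software's log10 ratio of red over green. They also deposited a series table on a log2 scale, which equalled the software's processed ratio within 0.001 for 97.6% to 97.9% of probes.

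Background was corrected with limma 3.58.1 in R 4.3.3 (normexp, offset 50, all 44495 spots). The 1377 control spots and those marked as outliers (1.89% to 2.71% of an array) were left out, ratios were normalized by loess, and spots of a probe were averaged. Kept were 28505 of 34127 probes, those with values on 2 or more arrays and, in red or in green, a signal well above background on every array. Their mean log2 ratio was tested against 0 (lmFit, eBayes) with Benjamini-Hochberg adjustment over all of them, and 1055 passed at 0.05. Each gene was represented by its brightest kept probe. The smallest p of an exact sign permutation over 4 arrays is 0.125, so none was made. The steps were tested on simulated arrays. Normalized intensities are the offset-corrected channels after loess, and levels were scaled by Aquantile. The offset draws ratios of weak signals towards 0, and the number of arrays limits the precision.

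Probes were named through their accession in RefSeq (GRCh38.p14), where 24826 of 34127 matched. Named were AEG-1, each gene past the threshold, each double-stranded RNA sensor, genes whose probes disagreed by over 0.3 or in their call, genes at background, and the others by role. The 46 genes, their roles and the further lists were chosen with earlier results of these data known, and some further pathway genes are not reported here. The comparison of levels and its alternatives were chosen after seeing the data. Other alternatives changed the ratio, background, normalization, filter, outlier spots, variance, test, probes and arrays.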

Additional observations from a re-analysis of the deposited data

Results flagged for a closer look

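In 7 of the 73 genes with values on 4 arrays (9.59%, where chance gives about 5%), 1 array lay apart from the other 3, with a gap past Dixon's critical value as a share of the range of the log2 ratios. For IFIT1 the gap was 0.909 of the range, from array 4 (-1.17), and for IFI44 it was 0.882, from array 3 (-0.37). Array 2 lay apart for USP18 (0.969, at -0.12), IFITM2 (0.846, at 0.31) and SAMD9L (0.841, at -0.16), and array 3 for ISG15 (0.844, at 0.15). Among the genes outside the list of 46, array 1 lay apart for IRF3 (0.85, at -0.13). Of these genes, IFIT1 and IFI44 passed the test.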

How the results depend on the processing

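IFIT1, IFIT2, PLSCR1, SAMD9, IRF9 and IFI44 had means below 0 under all 16 alternatives. The count of 6 genes stayed between 5 and 7 under the other settings of ratio, background, filter, outlier spots, variance and probes, and was 18 with median centring, 0 by the methods' t-test after Benjamini-Hochberg (11 at an unadjusted p under 0.05), which called 0 of all 23484 genes and so says nothing about these, and 2 to 7 with an array left out. The t-test's adjusted p was 0.222 for IFI44 (-0.27), 0.34 for IFIT1 (-0.64), 0.234 for IFIT2 (-0.42), 0.265 for IRF9 (-0.32), 0.157 for PLSCR1 (-0.35), 0.25 for SAMD9 (-0.32) and 0.144 for AEG-1 (MTDH, -3.18). With a trended, robust variance IFIT1 (-0.64) had 0.0596. With an array left out, means ran from -0.28 to -0.24 (IFI44), -0.71 to -0.46 (IFIT1), -0.37 to -0.28 (IRF9), -0.36 to -0.33 (PLSCR1) and -0.37 to -0.30 (SAMD9). HERC5 turned from 0.002 to -0.21 with median centring. The median of the 42 genes was -0.021 in the software's ratios and in the series table, -0.038 with median centring, -0.024 without background correction, -0.019 over all probes of a gene and between -0.022 and 0.006 with an array left out. That of the 34 genes other than sensors was -0.021, -0.021, -0.064, -0.028, -0.019 and, with an array left out, between -0.022 and 0.006. Of the 31 further pathway genes, 0 passed in the software's ratios, the series table, normexp without offset and the t-test, 6 with median centring, 2 without background correction, without a filter, with the trended variance or with any probe, and 0 to 3 with an array left out. With median centring, 11.2% of all genes were lower and 20.8% higher. The causes were not tested, except that an array left out leaves fewer samples. The test was paired by array, since each array holds the ratio of both lines and forms the replicate. Without array 4, low in level for 15 of the 17 most variable genes, 7 genes were called lower, the 6 genes among them. Across all genes, 3.62% were called lower without array 4, against 2.26% with all 4 arrays and 0.452% without array 3. Weak signals (mean log2 up to the 7.61 of DDX60) limit IFI44, MX1, CMPK2, HERC5, SAMD9L, MX2, TRIM22, OAS2, OASL and DDX60. Outside the list they limit IFNB1, and RSAD2, BST2 and IFI44L were near background.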
